A study of Mus musculus with 6 samples.

Results

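The genes described here encode 10 cytokines and chemokines, the secreted proteins by which cells of a tissue call in and instruct immune cells: Il6, Lif, Cxcl1, Cxcl2, Ccl2, Ccl7, Cxcl12, Csf1, Cx3cl1 and Il33. They were taken by gene symbol from a table of 22706 genes measured by RNA-seq in muscle stem cells (MuSCs), the cells that rebuild skeletal muscle after injury. All 10 were in the table, and all 10 were among the 15915 genes tested, those with a mean of at least 5 normalized read counts over the 6 libraries. Il33 passed this minimum narrowly, with a mean of 5.50.

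MuSCs of 3 groups of mice were compared, with 2 libraries per group, all given as strain C57BL/6 in the labels. Control mice were wild type. Mdx mice lack functional dystrophin because of a mutation in Dmd that, per the methods, came from a C57BL/10ScSn line, and serve as a model of Duchenne muscular dystrophy. Sirt6mKO/mdx mice carry the same mutation and, in addition, a deletion of part of Sirt6, a gene for a histone deacetylase, by a Cre recombinase expressed from the Pax7 locus, so that recombination is expected in the whole Pax7 lineage from development on and not at a chosen time in the adult. They also carry a YFP reporter of this Cre. The legends of the study that present these libraries state male mice of young adult age, while the labels of the libraries give neither age nor sex. Cells were freshly isolated: limb and trunk muscle was digested with enzymes, cells with Sca1, CD45 or CD31 on their surface were depleted, and MuSCs were sorted by Integrin-a7 and CD34 or by a reporter. Total RNA was sequenced after depletion of ribosomal RNA, so the values come from the sorted cells and whatever cells were sorted with them.

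Some facts of the whole series bear on every value given here. The depth was between 4397632 and 9745218 approximate reads per library. Xist, the RNA behind X inactivation in females, had 16772 and 12950 normalized read counts in control libraries, 7 and 8 in mdx libraries, then 33 and 34 in the third group, whereas the Y-linked gene Ddx3y had 3 and 8, then 1024 and 1055, then 1555 and 1767. The control libraries therefore differ from the other 4 in the genes that mark sex, and sex and genotype cannot be told apart in either comparison with control. Sirt6 itself had 41 and 32 in control libraries, 33 and 40 in mdx libraries, then 37 and 30 in the third group. The values are per gene and include exons outside the deleted part, so they do not check the deletion. The study measured Sirt6 mRNA in MuSCs of these genotypes separately, by RT-qPCR. The third group is called the Sirt6mKO/mdx-labelled libraries. Pax7, the transcription factor that defines MuSCs, had values from 2167 to 3236 in the 6 libraries. All 9 MuSC markers examined were above 0 in every library.

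IL-6 and LIF belong to 1 cytokine family: both signal through the shared receptor subunit gp130 and activate STAT3. CXCL1 and CXCL2 draw neutrophils through the receptor CXCR2, and CCL2 and CCL7 draw monocytes through CCR2. CXCL12 acts through CXCR4 in the homing and retention of cells, CSF1 sustains macrophages, CX3CL1 is a chemokine anchored in the membrane, and IL-33 is a nuclear protein released by damaged cells as an alarm signal. The first 6 of these genes are known as inducible: NF-kB, AP-1 and C/EBP factors switch them on within a short time of a stimulus, and proteins of the TTP family, which bind AU-rich elements in the 3′ UTR, bring their mRNAs down again. Dissociation of a tissue is itself known to induce such genes in MuSCs.

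The reference sequence was searched for these elements. Promoter windows from 250 bases before to 50 after the start of a gene came from a set based on RefSeq (GRCm38.p6). The set at hand held 9 windows of 8 of the 10 genes and none of Ccl2 and Ccl7, whose promoters were therefore not searched. The windows were searched on both strands for GGANTTTCC, the core of an NF-kB site. It was found in 4 of the 9 windows, those of Cxcl1, Cxcl2, Il6 and Csf1, against 1.25% of 32851 windows of all genes. The AP-1 motif TGANTCA was found in the windows of Il6 and Lif, that is 2 of the 9, against 7.81% of all windows, and the cAMP response element TGACGTCA in 0 of the 9, against 1.79%. TATAAA was found in 3 of the 9 windows, against 13.6%. The motifs searched do not overlap each other in these windows. A match is a description of the letters and no evidence that a factor binds. The 120 bases before the start site are shown for both neutrophil chemokines and Il6, with the NF-kB match in capitals, and for Lif, in which none was found.

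Cxcl1, plus strand, chr5:90891125-90891244: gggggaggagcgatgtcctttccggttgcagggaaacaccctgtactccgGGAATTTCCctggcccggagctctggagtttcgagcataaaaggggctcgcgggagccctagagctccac
Cxcl2, plus strand, chr5:90903779-90903898: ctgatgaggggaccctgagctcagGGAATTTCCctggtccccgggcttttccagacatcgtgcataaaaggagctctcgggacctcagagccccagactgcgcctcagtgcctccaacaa
Il6, plus strand, chr5:30012994-30013113: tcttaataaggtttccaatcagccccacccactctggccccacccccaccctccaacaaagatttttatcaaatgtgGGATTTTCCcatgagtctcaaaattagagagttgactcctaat
Lif, plus strand, chr11:4257448-4257567: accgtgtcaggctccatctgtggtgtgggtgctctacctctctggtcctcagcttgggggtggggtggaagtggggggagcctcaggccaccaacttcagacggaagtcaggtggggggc

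In Cxcl1, Cxcl2 and Il6 the match began 70, 96 and 43 bases before the start site and lay on the strand of the gene. The match of Csf1 lay 154 bases before its start on the opposite strand, outside the stretch of 120 bases. The AP-1 matches of Il6 and Lif began 249 and 228 bases before the start.

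At the other end of the mRNA, the 3′ UTR of each gene was read from the GENCODE M21 annotation of GRCm38 and searched for ATTTA, the pentamer of AU-rich elements (AUUUA in the RNA). Cxcl2 held 11 of them, 14.99 per kb of 3′ UTR, Il6 held 6 (14.1 per kb) and Cxcl1 held 7 (11.8 per kb), against a median of 1.13 per kb over 20629 genes. Ccl7 held 2 (4.60 per kb) and Ccl2 held 1 (3.64 per kb). Lif also held 7, but in a 3′ UTR of 3180 bases, which gave 2.20 per kb. The longer form TTATTTATT was found in 4 of the 10 genes (Cxcl2, Cxcl1, Lif and Cx3cl1) and in 6.92% of all genes. The lowest densities, 0.771 and 0.535 per kb, were those of Cxcl12 and Cx3cl1. The stretch of 30 bases with the most pentamers, in capitals, is shown for the same 4 genes. All of these stretches lie within a single exon on the plus strand.

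Cxcl1, 3′ UTR, chr5:90892606-90892635: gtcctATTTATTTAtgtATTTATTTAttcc
Cxcl2, 3′ UTR, chr5:90905327-90905356: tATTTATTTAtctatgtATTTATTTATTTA
Il6, 3′ UTR, chr5:30019684-30019713: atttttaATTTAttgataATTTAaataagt
Lif, 3′ UTR, chr11:4272414-4272443: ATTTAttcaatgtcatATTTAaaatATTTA

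**Figure D1:**
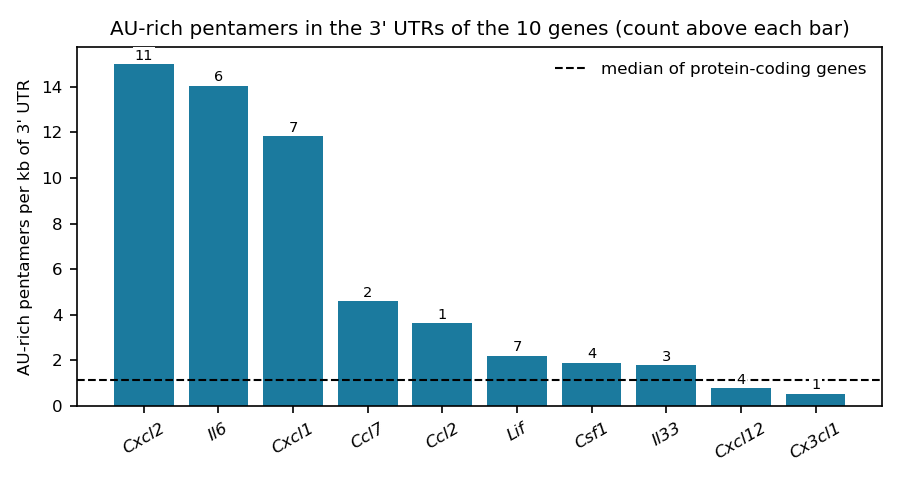
Bars give the number of AU-rich pentamers per kb of 3′ UTR for the 10 genes (vertical axis), with the count itself above each bar, and the dashed line gives the median of 20629 genes, 1.13 per kb. Cxcl2, Il6 and Cxcl1 stand at 14.99, 14.1 and 11.8, and the other genes at 4.60 or less.

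Mdx was compared with control to ask how these signals stand in MuSCs of dystrophic muscle. Cxcl1, Cxcl2, Ccl7 and Lif were lower in mdx, and 0 of the 10 were called higher, by limma, with voom weights or at an unadjusted p under 0.05. These 4 of 10 compare with 7.34% of the tested genes called lower. The 10 genes were chosen with earlier results of these data known, so they are not an unselected set beside such shares. A gene was called when its adjusted p (limma, Benjamini-Hochberg over all tested genes) was at most 0.05 and its log2 fold change was at least 1 in size. The Sirt6mKO/mdx-labelled libraries were compared with mdx to ask how dystrophic MuSCs with the added genotype differ. The deletion cannot be told apart here from the Cre, its reporter or any difference in sorting. Il6, Cxcl1, Cxcl2, Ccl2 and Ccl7 were higher in the Sirt6mKO/mdx-labelled libraries than in mdx, 5 of 10 against 5.62% of the tested genes called higher. Against control, 1 of the 10, Lif, was called, and it was lower, against 7.87% of the tested genes called in either direction and 2.68% called lower.

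Values of the 2 groups did not overlap for 8 of the 10 genes in mdx against control, for 7 in the Sirt6mKO/mdx-labelled libraries against mdx and for 5 in these against control. The shares among all tested genes were 57.0%, 56.0% and 51.6%. The median log2 fold change of the 10 genes was -1.65, 1.10 and 0.39 in the 3 comparisons, beside 0.00, 0.02 and 0.01 over all tested genes. Medians that involve the third group depend on the scaling. With equal totals the median of all tested genes was -0.58 in both, and Cxcl1, Ccl2, Ccl7 and Csf1 changed sign against control. Each group of libraries enters 2 of the comparisons, so that a chance value of mdx moves its comparison with control and that of the third group in opposite directions.

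**Figure D2:**
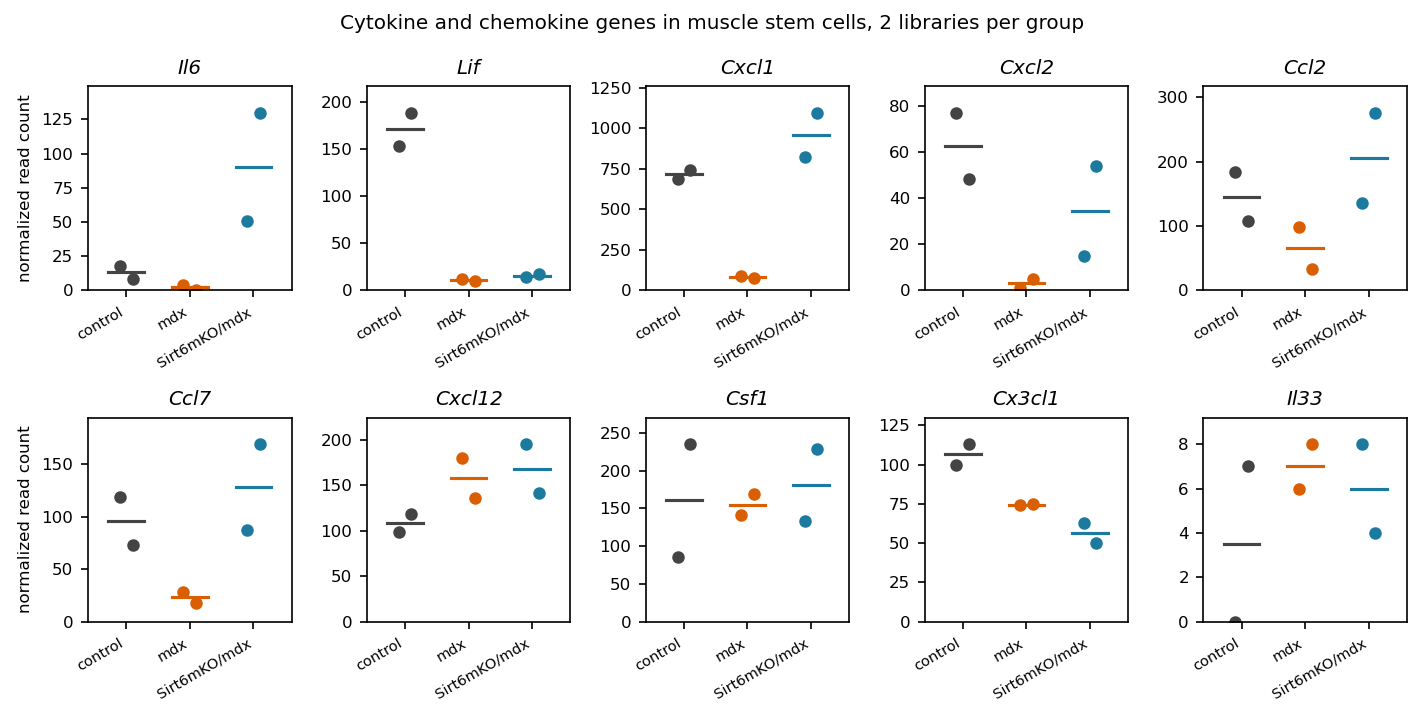
Normalized read counts (vertical axis of each panel, from 0) of the 10 genes in the 2 libraries of each group, with each point 1 library and each line the mean of a group. Cxcl1 stands at 689 and 746 in control libraries, 86 and 75 in mdx libraries, then 822 and 1098 in the Sirt6mKO/mdx-labelled libraries, while Lif stands at 154 and 189, then at 12 and 10, then at 14 and 17.

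Cxcl1 (ENSMUSG00000029380; chromosome 5, 90891241 to 90893115) had the higher level of the 2 neutrophil chemokines per kb of exon in every group. It had 689 and 746 normalized read counts in control libraries, 86 and 75 in mdx libraries, then 822 and 1098 in the Sirt6mKO/mdx-labelled libraries. Both mdx libraries lay far below the other 4, which were within a narrow range of each other. Its mean in mdx was 11.2% of that in control, or -3.14 as a log2 fold change (SE 0.25, adjusted p 1.45e-06). Between mdx and the Sirt6mKO/mdx-labelled libraries it rose by 3.55 (SE 0.25, adjusted p 1.11e-06), an 11.9-fold difference of the means. Against control the log2 fold change was 0.41 (95% interval -0.13 to 0.95), which was not called, and with libraries scaled to equal totals it was -0.20. The calls against control in mdx and against mdx in the third group were made in all 15 alternatives tried.

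Cxcl2 (ENSMUSG00000058427; chromosome 5, 90903899 to 90905909), its neighbour 10783 bases away, was measured from far fewer reads. Its values were 77 and 48 in control libraries, 1 and 5 in mdx libraries, then 15 and 54 in the Sirt6mKO/mdx-labelled libraries. The mdx libraries were again the lowest, and the last 2 libraries differed from each other by more than 3-fold. Cxcl2 fell by 4.16 on the log2 scale in mdx (SE 0.79, adjusted p 0.00236), with 8 approximate reads in mdx against 113 in control, and it rose by 3.10 from mdx to the third group (SE 0.79, adjusted p 0.0245). Its call in mdx against control was made in all 14 alternatives in which it was tested. The call in the third group was made in 9 of 14 and was lost without mdx replicate 1 (log2 fold change 2.31), without Sirt6mKO/mdx replicate 1 (3.99) or 2 (2.21), with voom weights and with no minimum mean. The ratio of Cxcl1 to Cxcl2 ran from 8.95 to 15.5 in control, from 15 to 86.0 in mdx and from 20.3 to 54.8 in the Sirt6mKO/mdx-labelled libraries.

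Ccl2 and Ccl7, the monocyte chemokines, lie 8258 bases apart on chromosome 11 and ranked the 6 libraries in the same order. Ccl7 (ENSMUSG00000035373; chromosome 11, 82045712 to 82047525) had 119 and 73 normalized read counts in control libraries, 28 and 18 in mdx libraries, then 87 and 169 in the Sirt6mKO/mdx-labelled libraries. Its mdx values were below all others, and the other 4 overlapped between the groups. It fell by 2.01 on the log2 scale in mdx (SE 0.46, adjusted p 0.00793) and rose by 2.38 from mdx to the third group (SE 0.46, adjusted p 0.00497). The first call was lost without control replicate 1 (-1.66), without mdx replicate 2 (-1.70) and with no minimum mean, and the second without mdx replicate 2 (2.08), without Sirt6mKO/mdx replicate 2 (1.91) and with no minimum mean.

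Ccl2 (ENSMUSG00000035385; chromosome 11, 82035571 to 82037453), which encodes MCP-1, had 183 and 108 in control libraries, 98 and 33 in mdx libraries, then 135 and 276 in the Sirt6mKO/mdx-labelled libraries. Here mdx replicate 1 came close to control replicate 2, and mdx replicate 2 was well below it. The log2 fold change in mdx was -1.29 (95% interval -2.31 to -0.27, adjusted p 0.0797) and was not called, and Ccl2 rose by 1.74 in the third group against mdx (SE 0.48, adjusted p 0.0350). That last call was made in 8 of 15 alternatives, and the value was 0.97 without mdx replicate 2, 2.26 without Sirt6mKO/mdx replicate 1 and 1.23 without Sirt6mKO/mdx replicate 2, none of them called. In mdx against control Ccl2 was called with a replicate block and without mdx replicate 1 (-2.06), and it was -0.52 without mdx replicate 2. The ratio of Ccl2 to Ccl7 lay between 1.48 and 1.83 in 5 libraries and was 3.50 in mdx replicate 1. Against control, the third group had log2 fold changes of 0.45 for Ccl2 and 0.38 for Ccl7, neither called, and with equal totals these were -0.15 and -0.22.

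Of the IL-6 family members, Il6 (ENSMUSG00000025746; chromosome 5, 30013161 to 30019968) was near the limit of detection in 4 of the libraries. Its values were 18 and 8 in control libraries, 4 and 0 in mdx libraries, then 51 and 130 in the Sirt6mKO/mdx-labelled libraries. The last 2 libraries were above all the others, although they differed from each other by more than 2-fold. Il6 rose by 5.21 on the log2 scale between mdx and the third group (SE 0.90, adjusted p 0.00246). In approximate reads this was 103 against 6, a depth-corrected ratio of 40.8 with a 95% interval of 18.1 to 114 from Clopper-Pearson limits, which cover counting error only. The call was lost without Sirt6mKO/mdx replicate 2 (4.54, adjusted p 0.103) and with no minimum mean (adjusted p 0.0852).

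Against control the log2 fold change of Il6 in the Sirt6mKO/mdx-labelled libraries was 2.66 (95% interval 0.74 to 4.57, adjusted p 0.0806), short of the threshold, and it passed with a pseudocount of 5 or voom weights. In mdx against control it was -2.55 (95% interval -4.46 to -0.63, adjusted p 0.0660), from 6 approximate reads against 22, and it passed with equal totals and without mdx replicate 1 (-3.71), while it was -1.39 (adjusted p 0.356) without mdx replicate 2. Il6 was higher in both libraries of the third group than in either control library.

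Lif (ENSMUSG00000034394; chromosome 11, 4257557 to 4272514) was lower than control in both other groups. It had 154 and 189 normalized read counts in control libraries, 12 and 10 in mdx libraries, then 14 and 17 in the Sirt6mKO/mdx-labelled libraries. The 4 libraries with the dystrophin mutation lay within a few counts of each other and more than 9-fold below the lower control library. Lif fell by 3.84 in mdx (SE 0.52, adjusted p 0.000169), and in the third group the log2 fold change against control was -3.38 (SE 0.52, adjusted p 0.000926). Both calls were made in all 15 alternatives. Between mdx and the third group the difference was 0.46 (95% interval -0.66 to 1.58, adjusted p 0.634) and was not called, and it was -0.12 with equal totals.

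Within a library, which leaves scaling aside, the ratio of Cxcl1 to Lif was 4.47 and 3.95 in control, 7.17 and 7.50 in mdx, then 58.7 and 64.6 in the Sirt6mKO/mdx-labelled libraries. The groups did not overlap. No test was made of this ratio, which was looked at after the values were known.

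**Figure D3:**
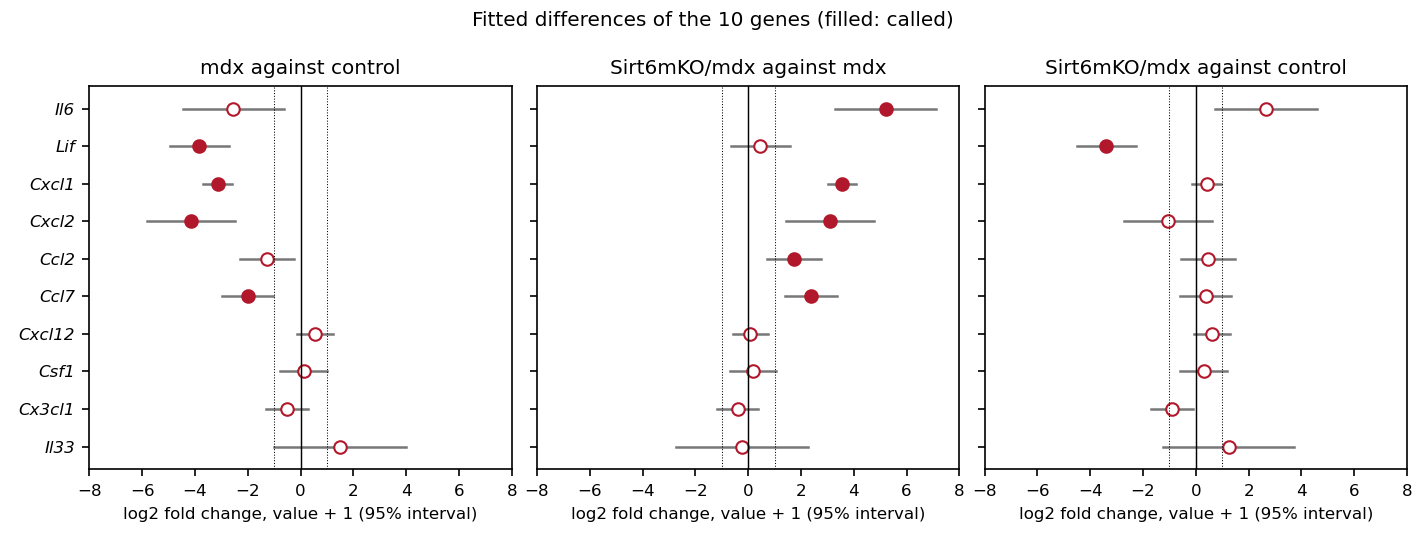
Log2 fold change of log2(value + 1) on the horizontal axis for the 10 genes in the 3 comparisons, with lines for 95% intervals, filled points for called genes and dotted lines at the minimum size of 1. The called genes lie to the left in mdx against control (4 genes), to the right in the Sirt6mKO/mdx-labelled libraries against mdx (5 genes), and in the last panel Lif is called at -3.38.

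The remaining 4 genes were not called in any comparison, and 1 of the 4, Cx3cl1, had an unadjusted p under 0.05, against control in the third group. Cxcl12 (ENSMUSG00000061353; chromosome 6, 117168535 to 117181367) had 98 and 118 in control libraries, 180 and 136 in mdx libraries, then 195 and 141 in the Sirt6mKO/mdx-labelled libraries. Its control values were below the other 4, with a log2 fold change of 0.54 in mdx (95% interval -0.14 to 1.21). The ratio of Cxcl1 to Cxcl12 was 7.03 and 6.32 in control, 0.478 and 0.551 in mdx, then 4.22 and 7.79 in the third group. The ratio, which is not per length, was lowest in both mdx libraries.

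Csf1 (ENSMUSG00000014599; chromosome 3, 107741048 to 107760469) was at 86 and 235 in control libraries, 141 and 169 in mdx libraries, then 133 and 229 in the Sirt6mKO/mdx-labelled libraries. The control libraries differed from each other by more than the group means did. The log2 fold change, a difference of mean log2 values, was 0.12 in mdx (95% interval -0.77 to 0.999), although the mean of the values themselves was lower in mdx than in control (155 against 160.5), and it was -0.60 without control replicate 1. Cx3cl1 (ENSMUSG00000031778; chromosome 8, 94772009 to 94782423) had 100 and 113 in control libraries, 74 and 75 in mdx libraries, then 63 and 50 in the third group. Its groups did not overlap in any of the comparisons, with log2 fold changes of -0.51, -0.40 and, against control in the third group, -0.91 (95% interval -1.69 to -0.13, adjusted p 0.144). It was called in the last of these with equal totals, at -1.50, a scaling that moved the median of all tested genes to -0.58 in both comparisons of the third group. Il33 (ENSMUSG00000024810; chromosome 19, 29925114 to 29960718) was listed at 0 and 7 in control libraries, 6 and 8 in mdx libraries, then 8 and 4 in the third group. Its intervals were wider than 4 log2 units, so the size and direction of a difference were not determined.

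Levels can be ranked between genes only per length of exon. In control, Cxcl1 led with 383 ± 21.5 normalized read counts per kb (SD, n = 2). Ccl2 at 128 ± 46.6 and Ccl7 at 120 ± 40.6 followed and overlapped each other. Lif followed at 39.4 ± 5.69, overlapping Csf1 at 30.4 ± 19.95, and Il6 and Il33 were last at 5.35 ± 2.91 and 1.21 ± 1.72. Cxcl2, at 30.2 ± 9.92, overlapped both Lif and Csf1.

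In mdx the order per kb was flatter. Ccl2 at 57.6 ± 40.4 overlapped Cxcl1 at 42.9 ± 4.15, and Csf1 at 29.4 ± 3.75 overlapped Ccl7 at 28.7 ± 8.83 (SD, n = 2). Lif, Il33, Cxcl2 and Il6 made up the lower end, between 2.53 and 0.824, and each overlapped the gene above it from Il33 down. In the Sirt6mKO/mdx-labelled libraries, Cxcl1 led again at 512 ± 104, Ccl2 and Ccl7 followed at 181 ± 87.6 and 160 ± 72.4, and Il6 came next at 37.3 ± 23.0, overlapping Csf1 at 34.3 ± 12.9. Lif was above Il33 alone there, at 3.56 ± 0.488.

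Receptors of these ligands were examined in the same libraries. Of 15 receptor genes listed, 12 were in the table and 9 were tested. Il6st, which encodes gp130, had 2198 and 3037 normalized read counts in control libraries, 1709 and 1500 in mdx libraries, then 1257 and 1365 in the Sirt6mKO/mdx-labelled libraries, and Lifr had between 303 and 542 in all libraries. Il6ra, the specific IL-6 receptor subunit, was low, at 4 to 20. Cxcr4 had values from 415 to 1065. None of these 4 was called. At an unadjusted p under 0.05 (limma), Il6st was lower in mdx than in control (-0.69). At that threshold, Lifr was lower (-0.62) and Cxcr4 higher (0.70) in the third group than in mdx. In alternatives, Il6st was called lower than control in the third group with equal totals (-1.58) and without control replicate 1 (-1.21), and Lifr with equal totals, at -1.25 against mdx and -1.02 against control.

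Ackr3, a scavenger receptor that binds CXCL12 without the usual G protein signal, was the receptor gene that was called. It had 1270 and 1717 in control libraries, 341 and 185 in mdx libraries, then 715 and 663 in the Sirt6mKO/mdx-labelled libraries, and the 3 groups did not overlap. Ackr3 fell by 2.55 in mdx (SE 0.29, adjusted p 3.5e-05), rose by 1.45 from mdx to the third group (SE 0.29, adjusted p 0.00683) and was lower than control there, at -1.10 on the log2 scale (SE 0.29, adjusted p 0.0299). The call in mdx against control was made in all 15 alternatives. The call against mdx was lost with equal totals (0.82), with no minimum mean, without mdx replicate 2 (1.01) and without Sirt6mKO/mdx replicate 1 (1.397) or 2 (1.51). The call against control in the third group was lost with no minimum mean, without control replicate 2 (-0.88) and without Sirt6mKO/mdx replicate 1 (-1.15) or 2 (-1.05).

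The receptors of the neutrophil and monocyte chemokines were close to 0. Cxcr2 had at most 2 normalized read counts, Ccr1 at most 2 and Ccr2 at most 5 in any library. Csf1r had 9 to 28, Cx3cr1 0 to 17 and the IL-33 receptor gene Il1rl1 0 to 46, the last with 46 and 4 in the 2 mdx libraries, while its partner Il1rap had 85 to 120. These 4 were tested and not called. The median log2 fold change of the 9 tested receptors was -0.32, -0.15 and -0.10 in the 3 comparisons, beside 0.00, 0.02 and 0.01 over all tested genes.

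Other cytokines and chemokines were mostly at or near 0. Of 65 listed, 55 were in the table and 23 had a mean of at least 5. In mdx against control 5 of the 23 were called lower and 0 higher by limma, with 1 higher at an unadjusted p under 0.05 and 0 with voom weights. Of all tested genes, 7.34% were called lower. Clcf1, another ligand of the gp130 family, had 539 and 585 in control libraries, 139 and 141 in mdx libraries, then 675 and 484 in the Sirt6mKO/mdx-labelled libraries. Cxcl10, an interferon-inducible chemokine, had 137 and 113, then 17 and 22, then 79 and 99. Both had mdx values well below those of the other 4 libraries.

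Clcf1 fell by 1.996 in mdx (SE 0.26) and rose by 2.02 in the third group (SE 0.26), and Cxcl10 fell by 2.62 (SE 0.41) and rose by 2.14 (SE 0.41). They were the 2 of the 23 called higher in the Sirt6mKO/mdx-labelled libraries than in mdx, beside 5.62% of all tested genes. The others lower in mdx were Il10 (56 and 43 against 3 and 9), Il16 (42 and 36 against 5 and 4) and Mif (69 and 136 against 35 and 33), with log2 fold changes of -2.99, -2.86 and -1.48. Of the 23, 0 were called against control in the third group by limma or with voom weights, with 2 higher and 2 lower at an unadjusted p under 0.05. The eosinophil chemokine Ccl11, named after its values were seen, had 45 and 56 in control libraries, 79 and 155 in mdx libraries, then 73 and 222 in the third group and was not called. The median of the 23 genes was -0.05, 0.40 and -0.08 in the 3 comparisons, and the second of these was -0.17 with equal totals. Cxcl10 lost its call against mdx with no minimum mean, without mdx replicate 1 (1.96) and without either library of the third group (2.30 and 1.98). With no minimum mean, Il10, Il16 and Mif also lost theirs. In mdx against control, Il10 lost its call without control replicate 1 (-2.80) or mdx replicate 1 (-2.32), Il16 without control replicate 1 (-2.76) or either mdx library (-3.00 and -2.73), and Mif without control replicate 2 (-1.001) and without any of the mdx or third-group libraries (-1.53 to -1.44). The count of 5 lower genes ran from 2, with no minimum mean, to 6 over the alternatives.

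Genes known to switch the inducible cytokines on or to bring them down were listed with earlier results of these data known. The list was not tested as a group. All 15 of these inducers and decay regulators were called lower in mdx than in control, with a median log2 fold change of -2.19. Of all tested genes, 7.34% were called lower. Against mdx, 12 of the 15 were called higher in the Sirt6mKO/mdx-labelled libraries (median 2.25), beside 5.62% of all tested genes. The inhibitor gene Nfkbia, a direct NF-kB target, had 2831 and 1572 in control libraries, 193 and 188 in mdx libraries, then 969 and 1422 in the third group. Cebpb, which encodes a factor that binds the Il6 promoter, had 292 and 343, then 18 and 27, then 279 and 303. Zfp36, which encodes the mRNA decay protein TTP, had 2566 and 2835, then 155 and 170, then 1311 and 1337, so that the gene for an inhibitor of these mRNAs was lowest in the same libraries as the mRNAs.

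Zfp36 fell by 4.05 in mdx, Cebpb by 3.78 and Nfkbia by 3.46 on the log2 scale. Cebpd, with 2612 and 1275, then 167 and 247, then 2660 and 4109, rose most of the 15 in the third group against mdx, by 4.02 (SE 0.34). Socs3, the feedback inhibitor of gp130 signalling, had 2414 and 1821, then 432 and 636, then 2693 and 4302, and Stat3 had 5056 and 3183, then 460 and 783, then 3283 and 3317. Their values in mdx were below those in all other libraries. Against control, Tnfaip3 (-1.62), Zfp36l1 (-1.29) and Zfp36 (-1.03) were lower in the Sirt6mKO/mdx-labelled libraries, 3 of the 15, and each lost its call with no minimum mean, without either library of the third group and without 1 of the control libraries (replicate 1 for Tnfaip3, at -1.05, and replicate 2 for Zfp36l1 and Zfp36, at -1.20 and -0.95). Over the alternatives, the count of 15 fell to 13 at the lowest and that of 12 to 7. The count of 3 lower against control ran from 0 to 7, with at most 1 higher.

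Genes of the immediate early and dissociation response, a list also chosen with earlier results known, moved in the same directions. Of 25 listed, 24 were called lower in mdx than in control (median -2.74), beside 7.34% of all tested genes. Against mdx, 24 were called higher in the Sirt6mKO/mdx-labelled libraries (median 2.31), beside 5.62% of all tested genes. Against control, 1 was higher and 2 were lower in the third group (median -0.21). Over the alternatives the count of lower genes ran from 0 to 8, and the higher gene was lost with equal totals. Fos had 10775 and 14930 normalized read counts in control libraries, 1654 and 1921 in mdx libraries, then 8993 and 10412 in the third group. Jun had 8115 and 8818, then 1903 and 2212, then 7048 and 7934, and Egr1 had 12387 and 16203, then 2544 and 3725, then 15723 and 14748.

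Atf3 had 3264 and 5358, then 77 and 121, then 1391 and 1925, and was 1 of the 2 called lower against control, at -1.35, a call lost with no minimum mean, without control replicate 2 (-0.996) and without either library of the third group (-1.12 and -1.59). The count of 24 in the third group against mdx was 16 without Sirt6mKO/mdx replicate 2. Whether the response to isolation has a part in the differences of the cytokine genes was not tested. Lif had a log2 fold change of 0.46 against mdx in the third group, below the medians of both lists. Zfp36l1 (0.39) and Nfkb1 (0.58) of the inducer list were also not called there. Zfp36l1 was, like Lif, called lower than control in both other groups. The difference of Lif was not tested against that of the other genes.

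**Figure D4:**
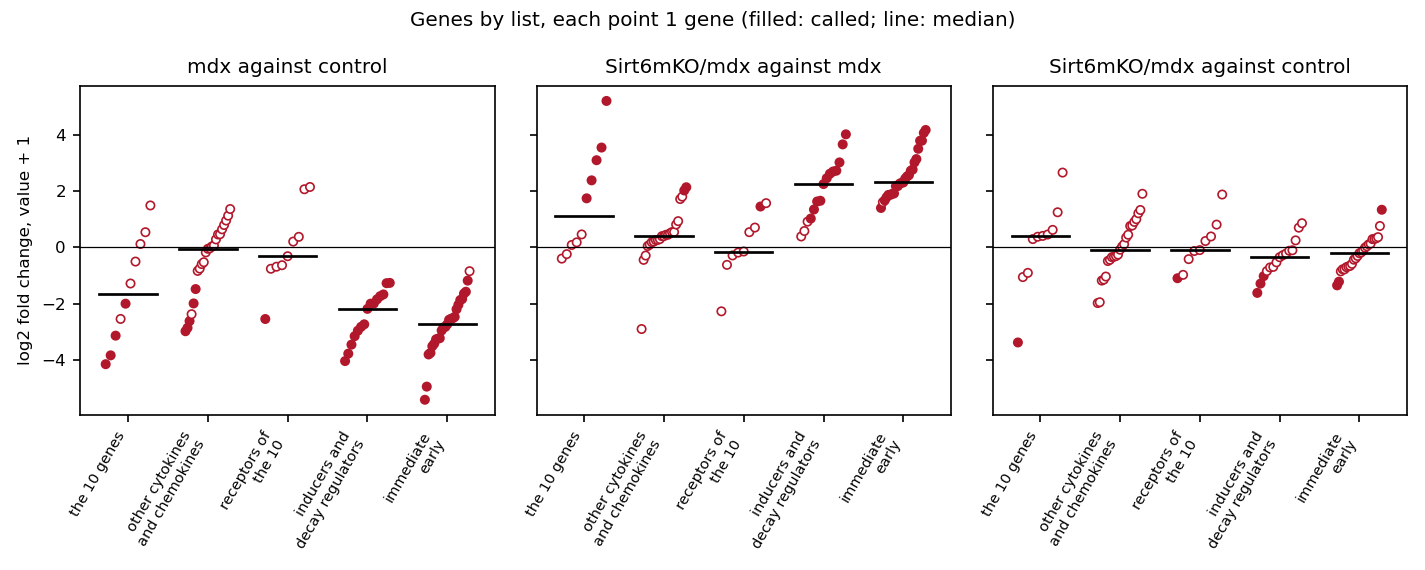
Log2 fold change (vertical axis) of every tested gene of 5 lists in the 3 comparisons, with filled points for called genes and a line at the median of each list. Inducers and immediate early genes lie below 0 in mdx against control (medians -2.19 and -2.74) and above 0 in the Sirt6mKO/mdx-labelled libraries against mdx (2.25 and 2.31), while the medians of the receptors are -0.32 and -0.15.

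The sorted cells may include other cell types that express these genes. In bulk RNA, fewer cells of a type and less RNA per cell cannot be told apart. Summed over 14 macrophage and leukocyte markers, the level was 116 and 158 in control libraries, 189 and 143 in mdx libraries, then 234 and 270 in the Sirt6mKO/mdx-labelled libraries. Ptprc, which encodes CD45, was at 0 in both control libraries, at 5 and 3 in mdx, then at 3 and 19 in the third group, and C1qa was at 0 and 0, then 7 and 2, then 8 and 17. In control 8 and 4 of the 14 markers were at 0. Cd68, the most abundant of them, had 86 and 88 in control, 30 and 26 in mdx, then 107 and 56 in the third group, and was called lower in mdx against control, whereas Lyz2 and Cd163 were higher in mdx and in the third group than in control. The call of Cd68 was lost with no filter on low values. With a minimum mean of 50 the count of 2 higher genes was 0 because Lyz2 and Cd163 were then not tested. Their means over the 6 libraries were 32.2 and 21.8. Cd14 had 17 and 7, then 9 and 5, then 15 and 4, and Mrc1 had 6 and 19, then 5 and 8, then 15 and 7.

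Summed levels of 8 endothelial markers were 921 and 816 in control libraries, 427 and 448 in mdx libraries, then 629 and 648 in the third group, lowest in mdx. Most of each sum was Tek (669 and 631, then 379 and 348, then 503 and 469), which was not called. Flt1, Egfl7 and Emcn had their lowest mean in the third group and Cldn5 in control. Kdr and Pecam1 were called lower in mdx, and 0 were called by limma between mdx and the third group (3 higher at an unadjusted p under 0.05, 0 with voom weights). The 2 endothelial calls fell to 0 with no filter on low values, and at most 1 endothelial marker was called higher in the third group than in mdx under an alternative. The 8 myofibre markers summed to 18936 and 38105 in control, 14726 and 12184 in mdx, then 33054 and 24103 in the third group, lowest in mdx as well. Most of each sum was Ttn, which was not called. All 8 had a negative fold change in mdx against control (median -1.33) and a positive one in the third group against mdx (median 1.197), 6 of them at an unadjusted p under 0.05 in either comparison. By the call, 3 were lower in mdx (Mb, Acta1 and Ckm) and 3 were higher in the third group than in mdx (Mb, Acta1 and Tnnc2). Over the alternatives these counts ranged from 0 to 5 and from 0 to 6, both at 0 with no filter on low values. Summed levels of 8 fibro-adipogenic markers were 20887 and 27586, then 39032 and 31981, then 21323 and 28822, with Col1a1 and Ly6a called higher in mdx and Col1a1 lower in the third group than in mdx. Most of these sums was Col3a1, a fibrillar collagen, at 30817 and 26928 in mdx, which was not called in mdx against control (limma, adjusted p = 0.535). Pi16 had its lowest mean in mdx, while Dcn and Lum had their highest in the third group. Replicates of mdx and of the third group differed for Pdgfra (195 and 18, then 142 and 19), Lum (315 and 64, then 316 and 102) and Ly6a (79 and 21, then 65 and 15). In the third group, Dpt and Col3a1 were not higher in replicate 1. The 2 calls in mdx were 1 when the minimum mean was 50, which leaves out Ly6a (mean of 32.0). The 1 call between mdx and the third group ranged from 0 to 2. Of 7 smooth muscle and pericyte markers, Acta2 was higher and Abcc9 lower in mdx, and Notch3 lower in the third group than in control. Each of these counts fell to 0 with no filter on low values, and up to 2 were called lower in the third group than in mdx under an alternative. Of the 3 tested Schwann cell markers, of which Mbp was the most abundant, 0 were called by limma or with voom weights. At an unadjusted p under 0.05, 1 was lower in either comparison of the third group and 0 in mdx against control. Of the 9 MuSC markers Sdc4 was called, lower in mdx and in the third group than in control and higher in the third group than in mdx. The other 8, among them Chodl, the most abundant of the 9, were not called. The call against mdx was lost with equal totals, the call of the third group against control was lost with no filter on low values, and up to 3 MuSC markers were called lower in the third group than in mdx under an alternative. At an unadjusted p under 0.05, 2 MuSC markers, Vcam1 and Cdh15, were higher in mdx than in control and lower in the third group than in mdx (limma, adjusted p = 0.135 and 0.0647, then 0.0862 and 0.13). The part of these cells in the cytokine values was not tested.

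**Figure D5:**
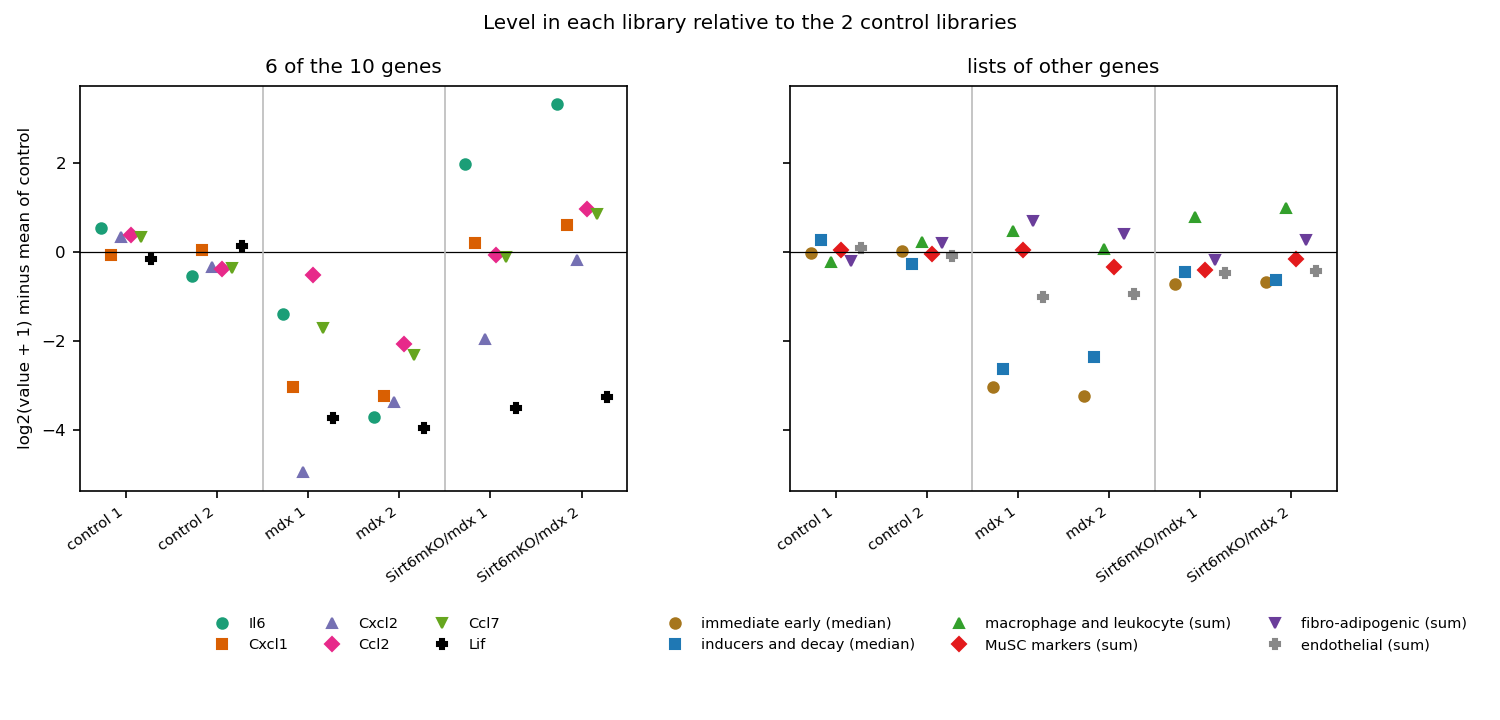
Log2(value + 1) minus the mean of the 2 control libraries (vertical axis) in each of the 6 libraries, at left for the 6 genes called in any comparison and at right for the median of 2 lists and the summed level of 4 marker lists. The mdx libraries are low for the 6 genes and for the immediate early and inducer lists, while Lif stays low in the Sirt6mKO/mdx-labelled libraries (14 and 17 against 154 and 189 in control) and Il6 stands above control (51 and 130 against 18 and 8).

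The genes most like each called member over the 6 libraries were sought by Pearson's r of log2(value + 1) among the 9666 genes with a mean of at least 50. The r is a description over 6 libraries, takes no account of the size of a change and is given without a p. For Cxcl1 they were Mapre3 and Coq10b (r of 0.996 and 0.995), and for Cxcl2 Mir654 and Zbtb16 (0.988 and 0.987). Zbtb16 had 2133 and 775 in control libraries, 39 and 120 in mdx libraries, then 472 and 1009 in the Sirt6mKO/mdx-labelled libraries. For Ccl2 they were Rnf114 and Higd1a (0.992 and 0.985), for Ccl7 Csrp2 and Inpp5k (0.996 and 0.993) and for Il6 Ube2b and Uhrf1bp1l (0.994 and 0.993).

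For Lif they were Bcar3 and Cpeb1 (0.997 and 0.995). Bcar3 had 870 and 977 in control libraries, 308 and 288 in mdx libraries, then 327 and 391 in the Sirt6mKO/mdx-labelled libraries, and Cpeb1 had 446 and 463, then 208 and 211, then 210 and 220. Both shared with Lif a level in the last 4 libraries below that of control. Il6, Cxcl2 and Il33 fell below the minimum mean of 50 and so could not be named as a nearest gene.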

How the data were processed

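RNA-seq was measured in 6 libraries, 2 per group, and groups came from the labels. The authors used Reaper for trimming, STAR for alignment (2.4.2a in the submitters' processing notes) to GRCm38 and featureCounts 1.4.5-p1 for counting in exons, without reads on several genes or places, and normalized with DESeq2 1.6.0. Use of strand was not stated, but no exon of the 10 genes overlaps another gene in GENCODE M21. Reads shared by related genes, such as Cxcl1 and Cxcl2, were lost to either. The deposited values are whole numbers that the authors made by dividing counts by a size factor and rounding, so their unit was taken to be a score, called normalized read count here, and raw counts were not used. Size factors from 0.537 to 1.53 were recovered from the pattern of whole numbers, and multiplying by them gave the approximate reads.

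All 6 libraries entered 1 fit of limma 3.58.1 (R 4.3.3) to log2(value + 1), with a mean-dependent prior variance, for genes whose mean reached 5. This scale understates changes of low genes. Adjusted p-values (Benjamini-Hochberg, two-sided) are over the 15915 genes tested. The labels do not say that libraries came from separate animals, so p-values measure the spread between libraries. Named genes were, by rule, the 10 genes, the receptors, the 2 genes most alike to each called member, up to 5 called genes at either end of each related list with Fos, Jun, Egr1 and Atf3, the most abundant and the called marker genes, and the genes that check the labels. Further genes of these lists (Socs3, Stat3, Nfkb1, Ptprc, C1qa, Cd14, Mrc1, Ccl11, Pi16, Dcn, Lum, Pdgfra, Dpt, Flt1, Egfl7, Emcn, Cldn5, Vcam1 and Cdh15) were named after their values were seen. The 10 genes and all lists were chosen with earlier results of these data known. Alternatives were other pseudocounts (5 and 0.1), no minimum mean or one of 50, equal totals, TMM factors, voom weights, a robust prior, a replicate block, and each library left out.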

Additional observations from a re-analysis of the deposited data

How the results depend on the processing

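Of 441 fold changes of the 10 genes under the alternatives, 395 kept their direction and their side of the threshold, 20 lost their call, 7 gained one and 19 changed sign, all 19 of them not called. For the Sirt6mKO/mdx-labelled libraries against mdx the 5 calls were 1 with no minimum mean and 3 with a mean of at least 50 (which leaves out Il6, Cxcl2 and Il33), and 1 to 5 with a library left out. The count against control, 1, was 2 with a pseudocount of 5, equal totals or voom weights. In mdx against control the 4 calls were 3 to 6 with a library left out. The causes were not tested.

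Values that changed sign with equal totals were, against mdx, Lif (-0.12), Cxcl12 (-0.54) and Csf1 (-0.45), and against control in the third group Cxcl1 (-0.20), Ccl2 (-0.15), Ccl7 (-0.22) and Csf1 (-0.31). The median of the other cytokines against mdx was -0.17 with equal totals, that of the receptors in mdx against control 0.29 with no minimum mean. With a library left out, sign changed for Csf1 (-0.60 to 0.84), Il33 (-0.011 to 2.99) and the receptors' median (-0.33 to 0.14) in mdx against control, for Cxcl12 (-0.15 to 0.32), Csf1 (-0.21 to 0.57), Il33 (-0.67 to 0.18) and the receptors' median (up to 0.50) against mdx, and for Ccl2 (-0.058 to 0.97), Ccl7 (-0.10 to 0.85), Csf1 (-0.43 to 1.01) and Il33 (-0.25 to 2.75) against control. The alternatives for medians of lists were chosen after seeing the data.

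Replicate numbers did not pair the libraries: deviations of same-numbered libraries correlated across genes with r of -0.13 (control and mdx), 0.12 (control and Sirt6mKO/mdx) and 0.01 (mdx and Sirt6mKO/mdx). With a replicate block the counts were 5, 5 and 1, with Ccl2 gained in mdx against control (-1.29, adjusted p 0.0466). With 8 approximate reads of Cxcl2 and 6 of Il6 in mdx, the size of their differences is known only roughly.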
